A study of Ovis aries with 6 samples.

Results

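The cells described here are blood vessel endothelial cells of the sheep ovary that were chosen by their UMI counts of SELP, PLA1A and ABCG2. A UMI (unique molecular identifier) stands for 1 captured RNA molecule. SELP encodes P-selectin, the adhesion protein that endothelium stores and brings to its surface to slow passing leukocytes, PLA1A a secreted phospholipase, and ABCG2 a membrane pump that exports drugs and other small molecules. A barcode was kept when it held at least 1000 UMI, at most 10% mitochondrial UMI, at least 5 UMI of PECAM1, CDH5 and KDR together and more of these than of DCN and PTPRC, and fewer than 3 UMI of the lymphatic gene MMRN1. Its sum of SELP, PLA1A and ABCG2 then had to reach at least 2 UMI and exceed 3 other sums, which were ESM1, OIT3 and APLNR, APLN, TNFRSF11B and MASP1, and CA4, PPP1R1B and PLSCR5. Of 52290 barcodes in the whole series, 38465 passed the limits on UMI and mitochondrial share, 14511 were endothelial and 7457 met the full rule, which is 51.39% of the endothelial barcodes. The other 3 gates, named below after ESM1, APLN and CA4, held 4590, 205 and 902 barcodes, and 1357 endothelial barcodes met no gate. The rule uses measured values, so the levels of its own genes in this gate are given as a description and carry no test. SELP, PLA1A and ABCG2 were tested only in gates rebuilt without the gene tested.

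The ovaries came from 6 Hu ewes, 3 with a high litter size (HLS, at least 3 lambs) and 3 with a low litter size (LLS, fewer than 2 lambs). A whole ovary of 1 side was digested to single cells for each ewe, and each ewe gave 1 library of droplet-based single-cell RNA sequencing, so that the ewe is the replicate. The adult ewes of both groups were untreated and were slaughtered in oestrus, which a ram had detected. Cells of all vessels of the ovary were mixed in the digest, so the labels do not tell follicular, luteal and stromal vessels apart.

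Venous endothelium lines the vessels in which leukocytes leave the blood. Postcapillary venules carry P-selectin and von Willebrand factor in Weibel-Palade bodies, granules that are released within minutes of a stimulus, and they respond to inflammatory signals through NF-kB with adhesion proteins and chemokines. ACKR1, a decoy receptor that holds chemokines, and NR2F2, a transcription factor that keeps vein identity, are commonly used to recognise this endothelium, while capillaries of tissues with a barrier are known for transporters and for carbonic anhydrase 4, encoded by CA4.

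By replicate, 1350, 983 and 883 barcodes were gated in HLS and 851, 962 and 2428 in LLS. Their median depth was 12677, 10050 and 10042 UMI in HLS and 10910, 6927 and 7389 UMI in LLS. The gate made up 73.61% (95% Wilson interval 71.54 to 75.58, counting error only), 29.68% and 79.55% of the endothelial barcodes in HLS, and 21.99%, 76.05% and 77.82% in LLS. Thus 4 ewes lay between 73.61% and 79.55%, and HLS replicate 2 and LLS replicate 1 stood far below them. In those 2 libraries the ESM1 gate held 1674 and 2651 barcodes, against 32 to 117 in the other 4. The mean share was 60.95% ± 27.24 in HLS and 58.62% ± 31.73 in LLS (SD, n = 3 each), a difference within the spread between ewes (two-sided exact permutation test, p = 0.80, where 3 against 3 cannot go below 0.10). Without these 2 libraries the shares were 76.58% ± 4.2 and 76.94% ± 1.25 (n = 2 each). Between 0 and 2 barcode sequences were shared by the gated cells of any pair of libraries.

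**Figure D1:**
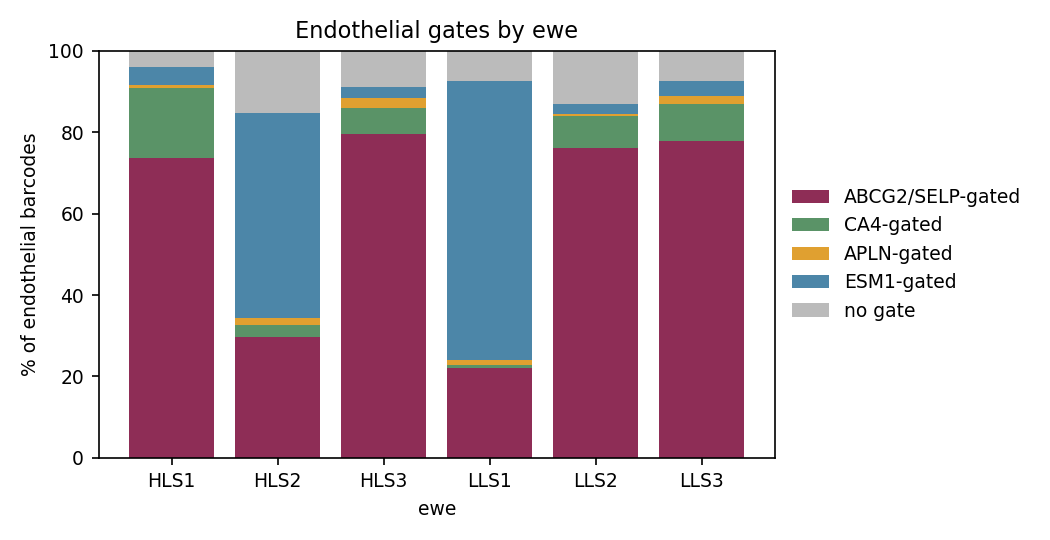
Share of endothelial barcodes (y axis, percent) in each gate, stacked for each ewe (x axis). HLS2 and LLS1 are mostly ESM1-gated, with 29.68% and 21.99% in the ABCG2/SELP gate, and the other 4 ewes lie between 73.61% and 79.55%.

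The 3 gating genes did not contribute equally. ABCG2 supplied between 79.22% and 91.47% of the gating UMI in the 6 ewes, and its count exceeded those of SELP and PLA1A in 84.37% to 99.43% of the gated barcodes. A UMI of SELP was found in 65.63%, 65.01% and 65.01% of them in HLS and in 71.56%, 70.89% and 72.45% in LLS, and a UMI of PLA1A in 10.69% to 25.33%. Between 24.18% and 33.18% of the gated barcodes held neither SELP nor PLA1A and entered through ABCG2 alone. In stromal barcodes, which should lack these genes, the share with a UMI of SELP was 0.3621% to 3.487% at a median depth of 5713 to 8815 UMI, and the share with a UMI of ABCG2 was 8.087% to 39.04%. With every barcode thinned to 2000 UMI, SELP was seen in 24.03%, 27.14% and 30.99% of the gated barcodes in HLS and in 35.65%, 44.38% and 43.18% in LLS.

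Neither ABCG2 nor SELP was confined to this gate. ABCG2 stood at 11.85 to 22.56 UMI per 10000 UMI (median 18.33) over the 6 ewes in the gated cells and at 8.269 to 16.06 (median 13.56) in the CA4-gated cells, so that the ranges overlapped, whereas it lay at 0.7081 to 2.556 in the ESM1-gated cells. SELP reached 1.53 to 3.794 (median 2.702), against 1.009 to 2.643 (median 2.208) in the CA4-gated and 0.1068 to 0.4299 in the ESM1-gated cells. CA4 in turn had a UMI in 38.66% to 87.41% of the ABCG2/SELP-gated barcodes. When ABCG2 was left out of the sum, 1433 of the 7457 barcodes still met the rule and 3962 passed to the CA4 gate. Since the rule is led by ABCG2 and not by SELP, the cells are called ABCG2/SELP-gated below.

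Barcodes at the edge of the rule were compared with those just outside it. Those with a sum of exactly 2 numbered 10 to 61 per ewe and held 1.778 to 2.979 UMI of ABCG2 per 10000, and the 6 to 49 barcodes per ewe just outside, with a sum of 1 above the other sums, held 0.7435 to 1.667, an order that the rule itself sets. VWF, which the rule did not use, lay at 1.491 to 3.568 UMI per 10000 with a sum of 2 and at 0.9209 to 6.522 with a sum of 1, lower outside in 5 of 6 ewes and higher in HLS replicate 1 (6.522 against 3.568, in 6 and 13 barcodes). Those whose sum led by only 1 UMI numbered 23 to 105 per ewe, and 17 to 118 per ewe were left out because their sum tied with another. In HLS replicate 2 these were 105 and 118, beside 983 gated barcodes, and in LLS replicate 1 they were 86 and 95, beside 851.

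**Figure D2:**
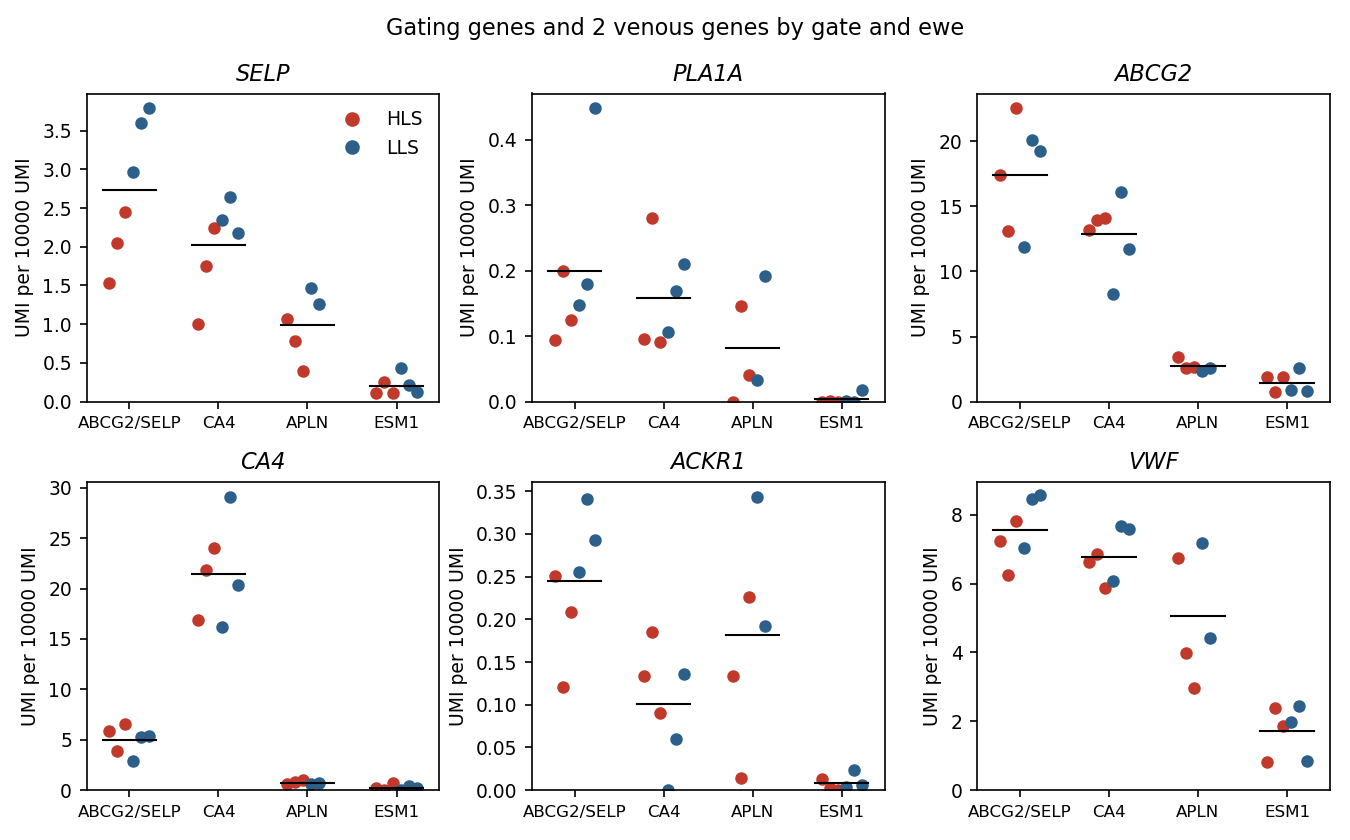
Level (y axis, UMI per 10000 UMI) of 4 gating genes and of ACKR1 and VWF in each gate (x axis), with 1 point per ewe (HLS red, LLS blue) and a line at the mean. For ABCG2 and SELP the ABCG2/SELP-gated and CA4-gated cells overlap, and ESM1-gated cells have the lowest mean.

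To measure each gating gene without its own help, the gate was rebuilt without that gene and the gene was compared with the pooled barcodes of the other 3 gates in the same ewe, which in HLS replicate 2 and LLS replicate 1 were mostly ESM1-gated. SELP was 2.617 ± 0.861 UMI per 10000 in the gated cells and 1.517 ± 0.958 in the others (SD, n = 6 ewes), higher in 6 of 6 ewes (exact two-sided test by flipping signs, p = 0.031, which is the lower limit with 6 ewes, adjusted p = 0.04688 over 3 genes). PLA1A was 0.1954 ± 0.1255 against 0.0802 ± 0.0704, also in 6 of 6 ewes (n = 6; exact sign-flip test, adjusted p = 0.04688). ABCG2 was 15.47 ± 5.47 in the 1433 barcodes gated on SELP and PLA1A and 13.38 ± 7.64 in the others, higher in 5 of 6 ewes, which did not pass the test (exact sign-flip test, p = 0.1875). With each of the other 3 gates given equal weight, it was higher by 5.119 ± 4.061 in 6 of 6 ewes and passed (exact sign-flip test, adjusted p = 0.031). In both comparisons of ABCG2 the others held 3962 barcodes that ABCG2 had admitted to the full gate. Neither comparison therefore ranks the gates as defined. Thinned to 2000 UMI, the difference was 0.826 for SELP (5 of 6 ewes, adjusted p = 0.2344) and 0.1049 for PLA1A (6 of 6 ewes, adjusted p = 0.09375), both by the same exact test.

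Against the CA4 gate alone, also rebuilt without the gene in question, none of the 3 held-out genes passed as higher. SELP was at 1.462, 1.9 and 2.374 UMI per 10000 in the gated cells of HLS and at 2.874, 3.477 and 3.615 in LLS, and in the CA4-gated cells at 1.247, 2.686 and 2.942 in HLS and 3.639, 3.636 and 3.591 in LLS. It was lower than in the CA4 gate in 4 of 6 ewes, with a mean difference of -0.3398 ± 0.4254 (exact sign-flip test, adjusted p = 0.2812). Without SELP in the rule, 6886 barcodes were gated in place of 7457, so barcodes that SELP had admitted left the gate. The sign for SELP therefore does not rank the gates as defined. ABCG2, at 13.87, 8.749 and 21.53 in HLS and 9.818, 20.43 and 18.43 in LLS, was lower than the 17.25, 19.58 and 24.3 and the 19.87, 20.91 and 19.43 of the rebuilt CA4 gate in 6 of 6 ewes (mean difference -4.752 ± 4.543; exact sign-flip test, p = 0.031, adjusted p = 0.09375). Without ABCG2 in the rule, that CA4 gate held 5007 barcodes, of which 3962 had been ABCG2/SELP-gated because of their ABCG2. The direction for ABCG2 is thus set by the rebuilding. With the gates as defined, the median of ABCG2 was higher in the ABCG2/SELP gate, as given above. The rule favours that order too, since ABCG2 supplied most of the gating UMI. PLA1A was higher in 3 of 6 ewes (mean difference 0.014 ± 0.0935; exact sign-flip test, adjusted p = 0.75).

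Against the mean of the 3 other gates, 14 of 15 NF-kB-induced genes, 6 of 9 chemokine genes and 7 of 13 venous genes were higher in the ABCG2/SELP-gated cells, and all 15 cell cycle genes and 10 of 13 basement membrane genes were lower. None of the genes in these lists was called against the CA4 gate. UMI were summed per ewe and gate, which gave 23 sums because LLS replicate 2 had only 4 APLN-gated barcodes, and were fitted with edgeR with the ewe as a block. Of 10447 genes tested, 4012 were called (38.4%) at an adjusted p under 0.05, of which 2072 were higher (19.8%) and 1940 lower (18.6%), 319 and 192 of them by over 2-fold. The list counts that follow are read against these shares of all genes. With C1q-bearing barcodes (described below) left out, 4019 of 10424 genes were called (38.6%), 19.8% higher and 18.8% lower, and the counts under that setting are read against those. The median log2 fold change over all genes was 0.0015. Without HLS replicate 2 and LLS replicate 1, 4643 genes were called, and without LLS replicate 3, which held the most gated barcodes, 2650.

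Of the 13 tested genes of the venous list, 7 were higher and 2 lower, with a median log2 fold change of 0.80. ACKR1 stood at 0.1207 to 0.341 UMI per 10000 (median 0.2531) in the 6 ewes, at 0 to 0.1846 in CA4-gated and at 0 to 0.0237 in ESM1-gated cells, and was higher by 2.40 ± 0.25 on the log2 scale (SE; adjusted p = 4.939e-07). VWF, which encodes von Willebrand factor, was higher by 1.02 ± 0.17 (adjusted p = 0.000154). The adhesion receptor gene ADGRG6 and the protease gene TLL1 were higher by 1.95 ± 0.19 and 1.10 ± 0.14, and the cytokine receptor genes IL1R1 and LIFR by 0.94 ± 0.29 and 0.89 ± 0.14. Each of these 6 genes was higher in 6 of 6 ewes. In contrast, EPHB4, a receptor that marks veins in development, was lower by 0.54 on the log2 scale (log2 fold change -0.54 ± 0.10) in 6 of 6 ewes, and NRP2 was lower (-0.27 ± 0.10). NR2F2 had a log2 fold change of 0.22 ± 0.11 and did not pass (adjusted p = 0.1296), with 2.002 to 2.269 UMI per 10000. SELE, the gene of E-selectin, had a UMI in 0.3704% to 1.998% of the gated barcodes and was too low to be tested. ACKR1 had a UMI in 5.493% to 13.93% of the gated barcodes, and in 0% to 0.8021% of stromal barcodes, so most gated barcodes held none of it. Thus ACKR1, VWF and NR2F2 were detected, SELE was near 0, and EPHB4 and NRP2 went against the name.

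None of the 13 venous genes was called between the ABCG2/SELP-gated and the CA4-gated cells, where only 22 of 10447 genes (0.211%) were called at all. The CA4 gate held 31 barcodes in LLS replicate 1 and 72 in HLS replicate 3, so a missing call does not show equal levels. Against ESM1-gated cells, where 50.7% of genes were called, 8 of the 13 were higher and 1 lower (background 24.5% and 26.2%). Against APLN-gated cells, where 34.5% were called, 2 were higher and 4 lower (17.6% and 16.9%). ADGRG6 stood at 1.155 to 2.423 UMI per 10000 in the ABCG2/SELP gate, at 0.8523 to 1.801 in the CA4 gate, at 0.6579 to 3.508 in the APLN gate and at 0 to 0.0503 in the ESM1 gate.

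Of the 9 chemokine genes tested, 6 were higher and 0 lower, with a median of 1.94, which was 1.321 with C1q-bearing barcodes left out and the count unchanged. CXCL9, which attracts activated T cells, stood at 0.8841 to 4.187 UMI per 10000 (median 2.111), against 0.0126 to 3.266 (median 0.0501) in ESM1-gated cells, and was higher by 2.42 ± 0.48 (adjusted p = 0.000608). In stromal barcodes CXCL9 stood at 0.069 to 0.9312 UMI per 10000, and at 2000 UMI it had a UMI in 11.65% to 36.06% of gated and 1.662% to 10.65% of stromal barcodes. CXCL10, a ligand of the same receptor, was at 0.4348 to 1.503 (median 0.7995) and higher by 1.94 ± 0.28. At 2000 UMI it was seen in 3.943% to 12.37% of gated and 2.03% to 6.644% of stromal barcodes, and in HLS replicate 1 the stromal share was the higher one (6.644% against 3.943%). CCL24 and CCL26, both ligands of the eosinophil receptor CCR3, were higher by 3.6 ± 0.26 and 2.05 ± 0.20 in 6 of 6 ewes. CCL26 lay at 0.5522 to 1.062 UMI per 10000 in the gated cells and at 0 to 0.0251 in the ESM1-gated cells, with no overlap. The neutrophil chemokine gene CXCL8 was higher by 2.62 ± 0.54 in 5 of 6 ewes, at 0.3166 to 3.182 UMI per 10000, but endothelial barcodes that met no gate held far more of it, 8.288 to 91.88. Without C1q-bearing barcodes it was higher by 1.32 ± 0.48 (adjusted p = 0.03358). CX3CL1, a chemokine tethered to the membrane, was higher by 0.63 ± 0.18. CXCL11, CXCL16 and CXCL12, with log2 fold changes of 0.90, 0.30 and -0.88, did not pass.

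Of 15 NF-kB-induced genes tested, 14 were higher and 0 lower, with a median of 0.64. Without C1q-bearing barcodes 12 were higher, as CSF1 (0.32 ± 0.17) and SOD2 (0.18 ± 0.10) no longer passed. Against the CA4 gate none of the 15 was called, with a median of 0.26. CSF3, the gene of the granulocyte growth factor, stood at 0.2786 to 0.6587 UMI per 10000 (median 0.4652), overlapping the 0.0906 to 0.3252 of CA4-gated cells, and was higher by 2.61 ± 0.26 (adjusted p = 3.369e-07). IL6 was at 0.537 to 1.122 (median 0.6385), against 0 to 0.071 in ESM1-gated cells, and higher by 2.24 ± 0.21. BIRC3, an inhibitor of cell death, was higher by 1.22 ± 0.12, and TNFAIP3 and NFKBIA, which both restrain the pathway, by 0.64 ± 0.12 and 0.74 ± 0.13. ICAM1, which firmly holds leukocytes, was higher by 0.93 ± 0.10 (adjusted p = 1.215e-06), with 2.14 to 3.208 UMI per 10000 against 0.6754 to 1.353 in the ESM1 gate. TNFAIP8, at 0.20 ± 0.11, did not pass. Of the 16 immediate early genes, which also respond to handling of cells, 14 were higher and 0 lower with a median of 0.52. JUND, FOSB and IER3 were higher by 0.77 ± 0.12, 0.82 ± 0.14 and 1.25 ± 0.15.

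Of 14 type I interferon-induced genes, 9 were higher and 0 lower (median 0.41), among them IRF7 (1.47 ± 0.15), ISG15 (1.13 ± 0.18) and the RNA sensor gene IFIH1 (0.91 ± 0.12). Of 17 interferon-gamma-induced genes, 6 were higher and 3 lower, with a median of -0.03. Besides CXCL9 and CXCL10, the higher ones were IRF1, SOCS3, TAP1 and CD274, and the lower ones were WARS1, PSMB8 and PSMB9. Of 10 genes of leukocyte adhesion, 3 were higher (ICAM1, JAM2 and F11R) and 2 lower (CD34 and PODXL), near the background of 19.8% and 18.6%. Of 11 genes of the Weibel-Palade body and its release, 5 were higher, namely VWF, EDN1, RAB27A, STX3 and IGFBP7, and 2 were lower, among them PLAT, with RAB27A, which guides the granules, at 0.55 ± 0.09.

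Of 11 pump and transporter genes tested, 7 were higher and 2 lower (median 0.83). In the gate rebuilt without ABCG2, itself a pump gene, 4 were higher and 2 lower (background 15.1% and 13.2%), with a median of 0.16. ABCB1, which encodes P-glycoprotein, stood at 3.432 to 7.651 UMI per 10000 (median 5.812), close to the 4.706 to 7.591 of CA4-gated cells and above the 0.8078 to 1.198 of ESM1-gated cells, and was higher by 1.43 ± 0.10 (adjusted p = 4.375e-09). The cholesterol pump gene ABCA1 was higher by 1.40 ± 0.14, the amino acid transporter gene SLC7A5 by 1.33 ± 0.16 and the glucose transporter gene SLC2A3 by 0.97 ± 0.11. SLCO2A1, a prostaglandin carrier, was lower (-0.74 ± 0.17). TFPI2, an inhibitor of clotting proteases, was the most raised of 13 coagulation genes, at 1.94 ± 0.19 and 3.531 to 6.685 UMI per 10000 against 0.3152 to 1.427 in ESM1-gated cells. In that list 2 were higher, TFPI2 and F8, and 5 lower, among them PROCR (-1.24 ± 0.32) and PLAU (-1.22 ± 0.28), the genes of the protein C receptor and of urokinase.

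Hormone receptor genes were higher in 3 of 4 cases and lower in 0. NR3C2, the mineralocorticoid receptor, rose by 2.45 ± 0.24, the progesterone receptor PGR by 1.60 ± 0.16 and the glucocorticoid receptor NR3C1 by 0.43 ± 0.07, each in 6 of 6 ewes. PGR lay at 0.1157 to 0.3294 UMI per 10000 (median 0.2303) in the gated cells and at 0.0126 to 0.0966 in the ESM1-gated cells. LHCGR, the receptor of luteinising hormone, was at 0.35 ± 0.34 and did not pass. PROX1, the transcription factor of lymphatic identity, was higher by 1.44 ± 0.17, at 0.3711 to 1.342 UMI per 10000, in barcodes that held fewer than 3 UMI of MMRN1. Stromal barcodes held 0.1405 to 0.2943 UMI of PROX1 per 10000, with a UMI in 8.314% to 17.38% of them. Of the 6 lymphatic genes tested RELN was higher as well, and LYVE1, FLT4 and SEMA3D were lower.

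All 15 cell cycle genes were lower (median -1.32). MKI67 stood at 0.0827 to 0.5552 UMI per 10000 (median 0.4042) in the gated cells and at 0.8547 to 3.929 in the ESM1-gated cells, with no overlap (log2 fold change -1.58 ± 0.37, adjusted p = 0.002009). Of 13 basement membrane genes, 10 were lower and 0 higher (median -0.54), among them COL4A1 (-0.54 ± 0.14), the nidogen gene NID1 (-0.89 ± 0.26), HSPG2 (-0.54 ± 0.10) and SPARC (-0.75 ± 0.13). Of 16 genes of tip cells and sprouting, 7 were lower, such as PDGFB (-0.66 ± 0.11) and MCAM (-0.89 ± 0.26), and 1 was higher, the insulin receptor INSR (1.31 ± 0.18). The arterial list was mixed, with 3 of 18 higher (DLL4, NOTCH1 and GLUL), 1 lower (GJA4) and a median of -0.13. It turned to 0 higher and 7 lower of 17 in the gate rebuilt without ABCG2 (background 15.1% and 13.2%). For the remaining endothelial lists the background was the same 19.8% and 18.6%. Of 10 capillary genes 3 were higher and 3 lower, and of 18 pan-endothelial genes 6 were higher and 5 lower. Of 6 flow-induced genes 2 were higher and 1 lower, and of 10 Notch genes 4 were higher and 0 lower. Of 11 genes of VEGF and angiopoietin signalling 2 were higher and 2 lower, and of 10 antigen presentation genes 5 were higher and 2 lower. Without ABCG2 in the rule, 0 of 11 Notch genes were higher and 3 lower (background 15.1% and 13.2%). With C1q-bearing barcodes left out, antigen presentation had 1 gene higher (TAP1) and 2 lower of 9, since CD74 (0.08 ± 0.43, against 1.60 with all barcodes) and CTSS (-0.12 ± 0.18, against 1.19) did not pass, B2M (0.19 ± 0.08) narrowly missed the threshold and DQA became too low to test. The VEGF and angiopoietin list then had 0 higher and 2 lower, as VEGFA (0.35 ± 0.16, adjusted p = 0.0881) and VEGFB (0.24 ± 0.11, adjusted p = 0.08616) did not pass, and the capillary and arterial lists each had 2 higher, without FABP5 (-0.06 ± 0.43) and GLUL (0.24 ± 0.13). In the lysophospholipid and prostaglandin list 4 of 13 were higher, with the autotaxin gene ENPP2 at 0.74 ± 0.11 and S1PR1 at 0.44 ± 0.10, and 1 was lower, PLPP3.

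**Figure D3:**
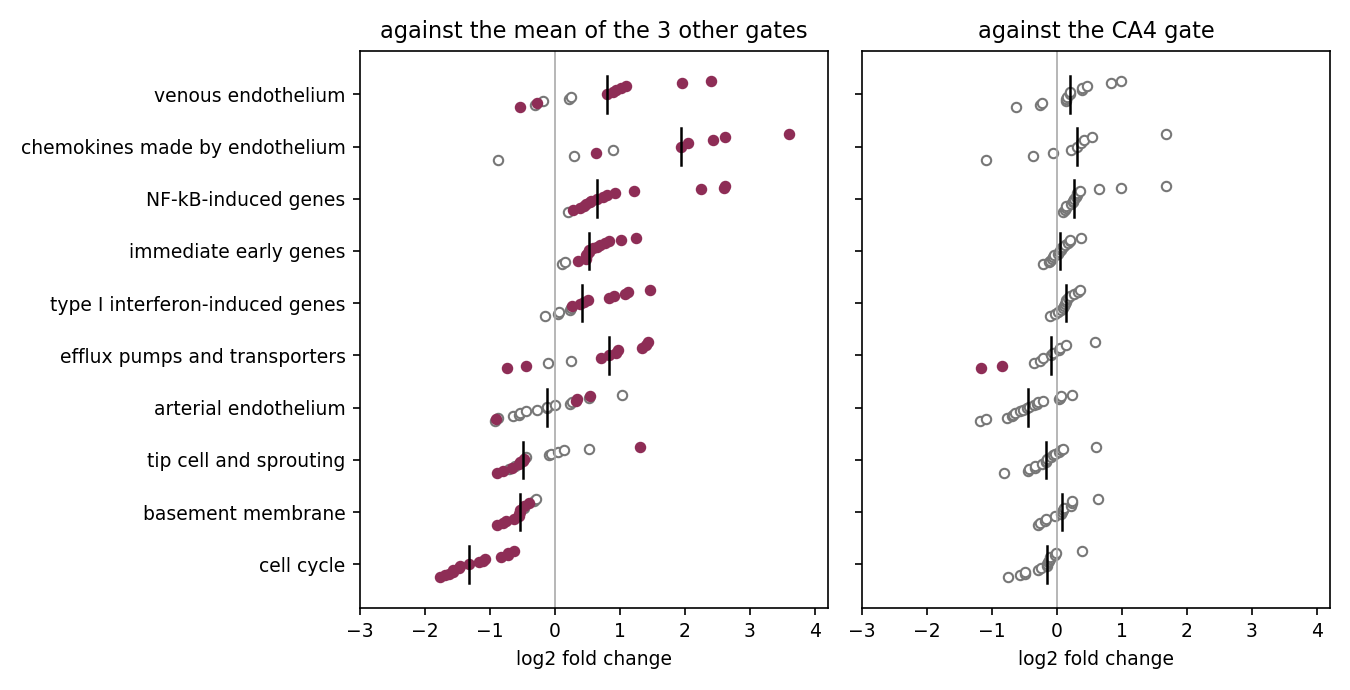
Log2 fold change (x axis) of each tested gene (points) of 10 lists (y axis), for ABCG2/SELP-gated cells against the mean of the 3 other gates (left) and against the CA4 gate (right). Filled points passed the edgeR test at an adjusted p under 0.05 and lines mark list medians, such as 1.94 for chemokines and -1.32 for the cell cycle on the left. On the right, the only filled points are SLC2A1 and MFSD2A.

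The gene with the largest rise among those called and of the same sign in every ewe was LOC100101238, which has no symbol (log2 fold change 5.29 ± 0.28, adjusted p = 5.809e-11, at 0.0338 to 3.529 UMI per 10000). The 15 with the largest rises among those with a symbol were DCC, CYBB, C1QC, C1QB, C1QA, STUM, RGS8, CCL24, RGS1, TYROBP, CFD, IFI30, NDNF, AIF1 and PTK2B. Of these, C1QA, C1QB and C1QC (complement C1q), TYROBP, CYBB, AIF1 and IFI30 are known as macrophage genes. C1QC averaged 42.5 CPM (counts scaled to a fixed library total) in the gated cells, 2.139 in the CA4 gate, 1.513 in the ESM1 gate and 0.6976 in the APLN gate (log2 fold change 4.70 ± 0.35, adjusted p = 6.566e-09). These RNAs were held by few barcodes, since 71 of the 7457 (0.9521%) carried at least 3 UMI of C1QA, C1QB and C1QC together, with 0.2963% as the lowest share (HLS replicate 1) and 2.492% as the highest (HLS replicate 3), and these barcodes held 93.02% to 98.49% of the C1q UMI and 85.67% to 98.95% of the LOC100101238 UMI. Of the 71, 12 were called doublets. Their median depth was 10030 to 32474 UMI. With all barcodes of this kind left out, LOC100101238, C1QA, C1QB, C1QC, TYROBP, CYBB, AIF1, IFI30 and RGS1 no longer passed the filter on low counts, and CFD lost its call (log2 fold change 0.12 ± 0.62, adjusted p = 0.9045). The other 6 kept it.

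Among those 6, DCC, a netrin receptor, averaged 7.694 CPM in the gated cells, 4.653 in the CA4 gate, 0.3181 in the ESM1 gate and 0 in the APLN gate (adjusted p = 1.199e-05). By ewe it was at 0.0018, 0.0008 and 0.1637 UMI per 10000 in HLS and at 0.0226, 0.1763 and 0.1004 in LLS, with 1 UMI in all gated barcodes of HLS replicate 2. The means thus rest on 3 ewes, and with the APLN gate at 0 the fitted fold of DCC, STUM and RGS8 depends on the prior count of the fit. STUM and RGS8, the latter a brake on G protein signalling, averaged 8.774 and 7.828 in the gated cells and 8.238 and 7.876 in the CA4 gate, with 0 in the APLN gate. PTK2B, a tyrosine kinase that responds to calcium, was higher by 2.69 ± 0.27, and NDNF, a secreted factor, by 2.85 ± 0.36. The 10 genes with the largest falls were PIMREG, P2RY2, NUF2, RDM1, MASTL, KIF20A, TRIP13, OIP5, MKI67 and CCNB1, with log2 fold changes between -2.06 and -1.56. Apart from P2RY2, a receptor for extracellular nucleotides, and RDM1, a DNA repair gene, they act in mitosis or its checkpoints.

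Markers of other cells were measured in the gated barcodes as well. The 13 leukocyte genes summed to 0.7684, 1.606 and 4.372 UMI per 10000 in HLS and to 1.314, 1.778 and 0.804 in LLS, against 0.5347 to 0.8932 in the other gates, and the most abundant was LAPTM5 in 5 ewes and C1QA in HLS replicate 3. Of the 5 tested, 3 were higher (C1QA, C1QB and TYROBP). The 8 stromal genes summed to 1.372 to 3.076 UMI per 10000, led by COL1A1, and 1 of 4 tested was higher (LUM, 0.67 ± 0.18). The 9 perivascular genes summed to 0.9584 to 1.485, led by TAGLN, with 0 of 4 called. Of 9 granulosa cell genes, CDH2 was higher among 3 tested, and of 7 theca and luteal genes, led by CYP11A1 in 5 ewes and by OXT in LLS replicate 3, 0 of 2 were called. Epithelial and Schwann cell genes summed to 0.2339 to 1.06, led by EPCAM, with 1 of 1 called higher. The 8 platelet genes measured, which do not hold PPBP and PF4 (not analysed here), summed to at most 0.046 and the 5 red blood cell genes measured to at most 0.0045 UMI per 10000, and none was high enough to be tested. With C1q-bearing barcodes left out, 2 leukocyte genes were high enough to be tested, and CD53 was lower (-1.41 ± 0.44). Of the 258 list genes tested in all, 9 lost their call under that setting, 4 were called before but became too low to test, and 147 were called in both, all with the same sign. The counts of higher and lower genes changed in the antigen presentation, NF-kB, VEGF and angiopoietin, capillary, arterial and leukocyte lists and in no other list.

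Few genes were called between the ABCG2/SELP-gated and the CA4-gated cells. Of the 22 genes called (7 higher, 0.067%, and 15 lower, 0.144%), the higher ones were LOC100101238, C1QB, C1QC, C1QA, the lysosomal protease gene CTSB, OSBPL6 and GRK5. By over 2-fold 5 were higher and 4 lower. LOC100101238 averaged 113.5 and 3.513 CPM (4.34 ± 0.33), and C1QB, C1QC and C1QA were higher by 4.31 ± 0.48, 4.06 ± 0.47 and 3.30 ± 0.52. The CPM of GRK5, a kinase of G protein-coupled receptors, averaged 32.04 and 17.04 (log2 fold change 0.83 ± 0.17, adjusted p = 0.03881). The lower ones held SLC2A1, the glucose transporter of barrier endothelium, with 0.2133 to 0.5142 UMI per 10000 against 0.2792 to 1.67 (log2 fold change -1.16 ± 0.19, adjusted p = 0.00417), and the lipid transporter gene MFSD2A (-0.84 ± 0.16, adjusted p = 0.01948). NOS3, which makes nitric oxide, was at 0.5301 to 1.015 UMI per 10000 against 0.7764 to 1.952 in the CA4 gate (-0.91 ± 0.18, adjusted p = 0.03178). The vascular genes RAMP2 (-0.41 ± 0.08) and RASIP1 (-0.49 ± 0.09) were lower too. With C1q-bearing barcodes left out, 2 genes were higher (OSBPL6 and GRK5) and 14 lower of 10424 (0.0192% and 0.134%). The count was 46 without HLS replicate 2 and LLS replicate 1, 4 without LLS replicate 2 and 9 without LLS replicate 3.

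The 1433 barcodes that met the rule through SELP and PLA1A alone were compared with a CA4 gate rebuilt in the same way. They numbered 81, 155 and 92 in HLS and 215, 254 and 636 in LLS, which is 5.795% ± 2.163 and 15.34% ± 8.47 of endothelial barcodes (SD, n = 3 each; exact permutation test, p = 0.20). The groups overlapped. The rebuilt CA4 gate held 5007 barcodes in place of 902, of which 3962 had been ABCG2/SELP-gated, so both sides of the comparison changed and its count is not comparable with the 22 above. Of 10970 genes, 422 differed (3.85%), 197 higher and 225 lower. This gate was made after the balance of the 3 genes had been seen. The largest rises were low and uneven between ewes, with the nucleotide receptor gene P2RY6 (3.40 ± 0.73) at 0 to 0.1192 UMI per 10000, SMIM32 (2.90 ± 0.48) at 0 to 0.1311 and PNOC (2.57 ± 0.55) at 0 to 0.2558. CCDC80, a matrix protein gene also used as a stromal marker (2.60 ± 0.52), stood at 0.1439 to 1.502 against 0.03 to 0.2509, and S100A9, a gene of neutrophils and monocytes (1.86 ± 0.47), at 0.01 to 0.2025 against 0.01 to 0.0531. ACKR1 stood at 0.1918 to 1.06 UMI per 10000 (median 0.6171) against 0.0881 to 0.2007 (median 0.1416) in the CA4 gate and was higher by 2.13 ± 0.26 on the log2 scale (adjusted p = 4.815e-05). ICAM1, at 3.154 to 4.676 against 2.142 to 3.139 with no overlap, was higher by 0.66 ± 0.13 (adjusted p = 0.004515), and CXCL10 and CSF3 by 1.30 ± 0.33 and 1.05 ± 0.24. Lower were SLC7A5, at 0.4983 to 0.8764 against 1.859 to 2.798 with no overlap (-1.73 ± 0.19, adjusted p = 1.693e-05), BTNL9, a capillary gene, at 0.0746 to 0.1888 against 0.314 to 0.6562 (-1.89 ± 0.17), MFSD2A (-1.15 ± 0.14), SLC2A1 (-0.99 ± 0.26), ABCB1 (-0.59 ± 0.15) and the flow-responsive factor KLF2 (-0.52 ± 0.10).

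By list, 3 of 14 venous genes were higher and 0 lower than in the CA4 gate (background 1.8% and 2.05%), 7 of 15 NF-kB-induced genes were higher, 6 of 11 pump and transporter genes were lower and 1 higher, and 4 of 17 arterial genes were lower and 0 higher. Against the mean of the other 3 gates, where 28.3% of genes were called, 8 of 14 venous genes were higher and 0 lower (background 15.1% and 13.2%). In that comparison 0 of 17 arterial genes were higher and 7 lower (median -0.44), and 0 of 11 Notch genes higher and 3 lower, where the full rule gave 3 higher and 1 lower of 18, and 4 higher and 0 lower of 10. Pump and transporter genes had 4 higher and 2 lower of 11, chemokines 7 higher and 1 lower of 9, NF-kB-induced genes 14 higher and 0 lower of 15, capillary genes 2 higher and 6 lower of 10, coagulation genes 4 higher and 2 lower of 13, tip cell genes 1 higher and 11 lower of 16, and all 15 cell cycle genes were lower. There NR2F2 passed, at 0.39 ± 0.09 (adjusted p = 0.002973), and EPHB4, at -0.10 ± 0.11, did not.

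**Figure D4:**
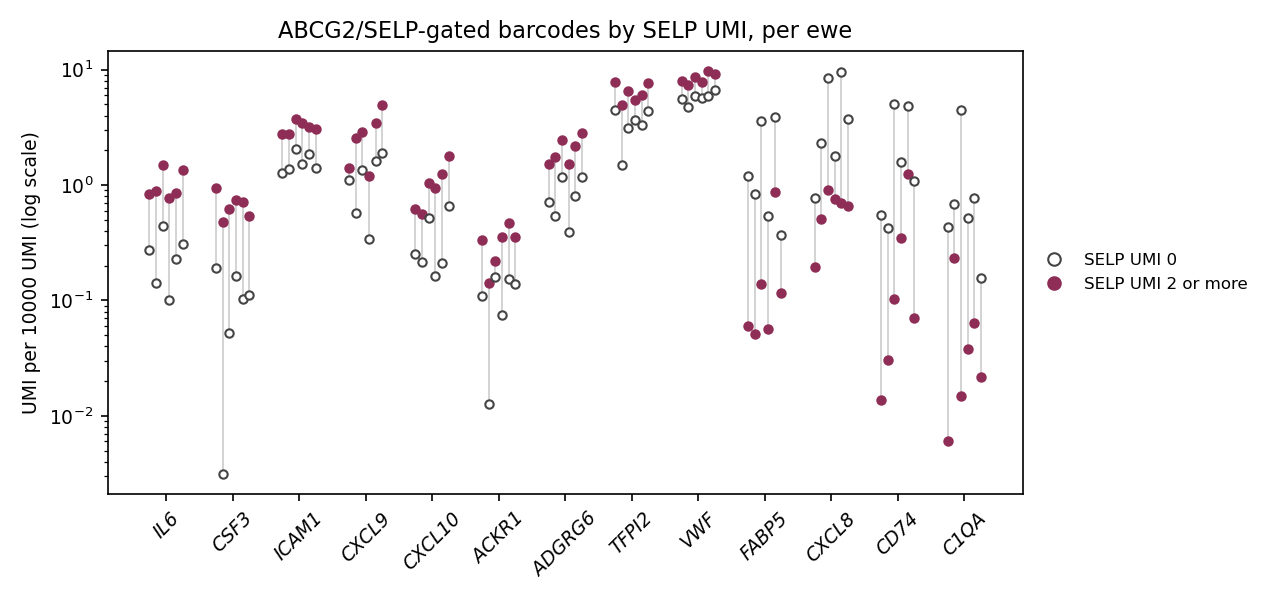
Level (y axis, UMI per 10000 UMI, log scale) of 13 genes (x axis) in ABCG2/SELP-gated barcodes with SELP at 0 (open) and with at least 2 SELP UMI (filled), joined for each ewe (HLS1 to LLS3 from left to right). IL6 to VWF are higher with SELP in every ewe, and FABP5, CXCL8, CD74 and C1QA are lower in every ewe. C1q-bearing barcodes are included.

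Within the gated cells, barcodes were also described by their own SELP count. Per ewe, 242 to 669 barcodes held no SELP and 421 to 1369 held at least 2 UMI. The barcodes with at least 2 were deeper, with a median of 7977 to 17106 UMI against 5607 to 9345, so that the cut is one of depth as well as of level. IL6 stood at 0.7778 to 1.489 UMI per 10000 with SELP and at 0.1004 to 0.4382 without, and CSF3 at 0.4754 to 0.9383 and 0.0031 to 0.1907. The ranges of ICAM1 (2.763 to 3.753 and 1.276 to 2.046), ADGRG6 (1.51 to 2.843 and 0.3932 to 1.181), TFPI2 (4.924 to 7.777 and 1.497 to 4.497) and VWF (7.319 to 9.77 and 4.77 to 6.65) did not overlap either. ACKR1 was higher with SELP in 6 of 6 ewes but overlapped, at 0.1425 to 0.4713 and 0.0126 to 0.1597. In the other direction CD74, the invariant chain of antigen presentation, lay at 0.0136 to 1.244 with SELP and at 0.4268 to 5.077 without, CXCL8 at 0.1949 to 0.8983 and 0.7758 to 9.502, and C1QA at 0.006 to 0.2337 and 0.1554 to 4.497, each lower with SELP in 6 of 6 ewes. C1q-bearing barcodes were kept in this cut, which was not repeated without them. Against the mean of the other gates, CD74 (0.08 ± 0.43) and FABP5 (-0.06 ± 0.43) lost their calls without those barcodes. CXCL8 kept a smaller rise there (1.32 ± 0.48). Arterial genes were low with SELP as well. GJA5, a gap junction gene of arteries, averaged 0.0707 ± 0.0519 with SELP and 0.7511 ± 0.4018 without (SD, n = 6 ewes), GJA4 0.083 ± 0.022 and 0.5721 ± 0.1772, and the chemokine gene CXCL12 0.174 ± 0.0373 and 1.057 ± 0.5395. Of 19 arterial genes 14 were lower with SELP in 6 of 6 ewes and 0 higher, of 14 capillary genes 10 and 0, of 16 tip cell genes 12 and 0, and of 13 leukocyte genes 6 and 0. Of 16 NF-kB-induced genes 10 were higher and 1 lower, and of 15 venous genes 8 and 3. Over the 372 genes measured here, which are those of the rule and of the lists, 58 were higher and 97 lower in 6 of 6 ewes. No share over all genes was computed for this cut. CA4 was higher with SELP, at 5.991 ± 1.448 against 3.008 ± 0.972, but it is a gene of the rule, which lets a barcode with more SELP hold more CA4 and stay in the gate. These are descriptions with no test.

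The genes whose log2 level followed SELP most closely over the 23 sums of ewe and gate were FOXP1 (Pearson r = 0.94) and VWF (0.93), followed by LOC101113728, MAP3K8, LOC106991099, USP3, SEMA6A, BIRC3, LOC101115044 and SNED1, down to 0.89. The sums share ewes, libraries and depth, and the gates were cut with SELP, so this is a description of likeness alone.

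Between HLS and LLS ewes no gene of the ABCG2/SELP-gated cells passed the test. Of 13833 genes, 0 had an adjusted p under 0.05 (0%), 364 had an unadjusted p under 0.05 (2.63%), and the groups did not overlap for 1129 (8.16%), with HLS above for 499 (3.61%) and below for 630 (4.55%). DESeq2 called 6. In simulated data of this size the edgeR test recovered 29.29% of genes changed by 2-fold and 80.85% of those changed by 4-fold, so that smaller differences were mostly not detectable.

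SLC8A1, the gene of the sodium-calcium exchanger, had the lowest p. It was counted 22, 23 and 30 times in the HLS ewes and 208, 390 and 599 times in the LLS ewes, or 1.23, 1.869 and 2.45 against 18.94, 42.8 and 26.46 CPM. The lowest LLS ewe stood above the highest HLS ewe, with a log2 fold change of -4.004 ± 0.387 and an adjusted p of 0.08875 (edgeR). The adjusted p was 0.04949 with C1q-bearing barcodes left out, 0.002639 with no filter on low counts, 0.03508 without LLS replicate 1 and 1.5e-20 in DESeq2. It was not called in the other settings run, nor with the replicate block. In the CA4-gated cells SLC8A1 lay at 0.0035, 0.0176 and 0.0403 UMI per 10000 in HLS and at 0.7098, 0.1695 and 0.2357 in LLS, again without overlap. It overlapped in ESM1-gated cells (0.0063 to 0.0387 and 0.0088 to 0.0473). Stromal barcodes, which hold more of it than the HLS endothelium, had 0.1578 to 0.271 in HLS and 0.3007 to 0.3931 in LLS. Whether RNA from other cells had a part in the difference was not tested.

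**Figure D5:**
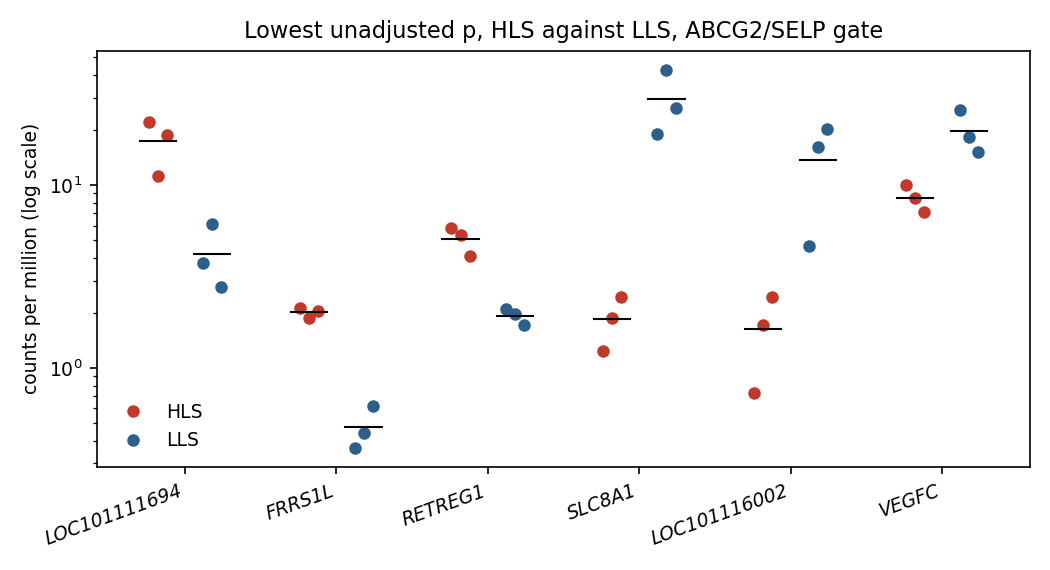
CPM (counts scaled to a fixed library total, y axis, log scale) in ABCG2/SELP-gated cells for the 3 genes in each direction with the lowest unadjusted p (x axis), with 1 point per ewe (HLS red, LLS blue) and a line at the group mean. The groups do not overlap for any of the 6 genes, and none passed adjustment in edgeR, SLC8A1 coming nearest with 0.08875, while DESeq2 called SLC8A1, LOC101116002 and LOC101111694.

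VEGFC, which encodes the growth factor of lymphatic vessels, was at 10.01, 8.534 and 7.106 CPM in HLS and at 25.68, 18.33 and 15.2 in LLS (log2 fold change -1.20 ± 0.24, edgeR adjusted p = 0.9778). LOC101116002 was the other gene of the 3 lowest p in that direction (-3.10 ± 0.62). In the opposite direction FRRS1L, a partner of glutamate receptors, was at 1.869 to 2.125 CPM in HLS and 0.3643 to 0.6184 in LLS. Stromal barcodes held far more FRRS1L, 0.1724 to 0.2879 UMI per 10000 against 0.0038 to 0.0214 in the gated cells, and their HLS and LLS ewes overlapped. RETREG1, a receptor for the turnover of endoplasmic reticulum, lay at 4.084 to 5.816 and 1.723 to 2.094, and in stromal barcodes at 0.0928 to 0.2941 UMI per 10000 against 0.0176 to 0.0557 in the gated cells, with LLS above HLS in stroma. LOC101111694 lay at 11.22 to 22.2 and 2.783 to 6.145. None of these passed adjustment in edgeR, while DESeq2 called LOC101116002 (-3.088) and LOC101111694 (2.073), both at an adjusted p of 0.0002918. The part of stromal RNA in these differences was not tested.

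None of the gene lists held a call between HLS and LLS. The level of SELP itself was 1.53, 2.043 and 2.444 UMI per 10000 in HLS and 2.96, 3.601 and 3.794 in LLS, without overlap, given without a test because the gene is part of the rule. CXCL9 overlapped, at 1.232, 1.739 and 2.484 in HLS and 0.8841, 2.83 and 4.187 in LLS, with a median log2 fold change of -0.45 over the 10 chemokine genes tested. Of the 15 venous genes tested, 1 was higher in HLS and 0 did not overlap (background 8.16% in either direction), with a median of -0.30. Of 15 type I interferon-induced genes, 1 was higher in HLS and 3 lay lower without overlap (background 4.55%), with a median log2 fold change of -0.37, among them IFI44 at 25.05, 31.78 and 33.9 CPM in HLS and 37.06, 42.8 and 44.48 in LLS (adjusted p = 0.9778). Among pump and transporter genes SLC7A5 lay higher in HLS, at 308.6, 141.2 and 205.8 against 107, 140.9 and 131.2, and ABCG1 lower, at 74.04, 64.62 and 97.77 against 106.1, 112.7 and 122.1, again without passing adjustment. The difference between HLS and LLS was also compared between this gate and the 3 others by an interaction term, and 0 of 10447 genes passed (86 at an unadjusted p under 0.05).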

How the data were processed

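Ovaries of 6 Hu ewes were sequenced with a droplet-based 3' kit. Per the labels and the study's methods, the authors ran Cell Ranger 5.0.0, which aligns with STAR, and deposited the raw UMI count of each gene in each barcode. The genome build was not given in the sources used here. Gates were applied to the counts as deposited. The cells, gene lists and tests were chosen with earlier results of these data known.

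Counts were summed per ewe and gate where at least 10 barcodes were present, and fitted after filterByExpr and TMM scaling with glmQLFit and glmQLFTest (edgeR 4.0.16, R 4.3.3), with p values adjusted by the Benjamini-Hochberg method over all genes tested. The 18 genes of the rule were left out of tests between gates. The contrasts between gates share the sums of the ABCG2/SELP gate. For shares, exact permutation tests (two-sided) were used, and for held-out gating genes exact sign-flip tests. DESeq2 1.42.0 was an alternative. Doublets were scored with scanpy 1.11.5 (0.8% expected per 1000 barcodes) and kept, and removed as an alternative, since the automatic threshold marked only 0.121% in LLS replicate 1. The other alternatives were a mitochondrial limit of 20%, the study's filters, a gate minimum of 3 UMI, no low-count filter, no TMM factors, no ewe block, thinning to 1000 or 2000 UMI, and each ewe left out. Added after seeing the data were a gate without ABCG2, barcodes with at least 3 C1q UMI left out, HLS replicate 2 and LLS replicate 1 left out, and, for held-out gating genes, an equal-weight mean of the other 3 gates and the CA4 gate alone as comparators. Stromal barcodes held at least 5 DCN UMI and no PECAM1, CDH5 or KDR.

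Named genes were, between gates, the 15 largest rises and 10 largest falls among called genes with a symbol and the same sign in every ewe, and, between HLS and LLS, the 3 lowest p in each direction. List genes and the gating genes were named besides. Genes of the gate without ABCG2 and those called in alternatives were chosen after their values were seen. On simulated data the edgeR step between gates recovered 93.81% of genes changed by 2-fold of 10087 tested and 7.73% of calls were false. Total counts per library ranged from 43329214 to 75549906. Figures were drawn with matplotlib 3.10.9 and tables handled with pandas 2.3.3 and numpy 2.4.6 in Python 3.11.15. No genome sequence was used here, and the values of some list genes are not reported here.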

Additional observations from a re-analysis of the deposited data

How the results depend on the processing

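For the 25 genes with the largest rises and falls against the mean of the other gates, 406 values under other settings kept their direction and side of the threshold, and 4 no longer passed (C1QB, TYROBP and CFD in the gate without ABCG2, at 2.90, 1.501 and 0.36, and CFD without C1q-bearing barcodes, at 0.12). Another 65 values could not be had because the gene did not pass the filter on low counts there, 24 of them after thinning to 1000 UMI, 8 without C1q-bearing barcodes, 8 without LLS replicate 2 and 5 in the gate without ABCG2. The genes were chosen as called with the same sign in every ewe, which favours a kept direction with 1 ewe left out. The study's filters removed no endothelial barcode, so the values under them repeat the main fit. Several kept calls had smaller rises in the gate without ABCG2. These were, for example, DCC (2.179 against 4.795), STUM (1.933 against 4.247), RGS8 (1.16 against 3.711) and CCL24 (2.129 against 3.6). PTK2B did not shrink (2.77 against 2.691). The difference of the share, HLS minus LLS, of 2.327 percentage points reversed to -3.48 with all barcodes within the UMI and mitochondrial limits as denominator, -9.544 in the gate without ABCG2, -3.383 after thinning to 2000 UMI and -0.355 without HLS replicate 2 and LLS replicate 1, and ranged from -15.99 (without LLS replicate 1) to 17.96 (without HLS replicate 2) with 1 ewe left out. It never passed the test, so its direction carries no weight. Between HLS and LLS the count of 0 became 6 with DESeq2, 1 with no low-count filter, 1 without C1q-bearing barcodes and 0 to 4 with 1 ewe left out. SLC8A1 was among the genes in each of these sets of calls, and without LLS replicate 1 the others were LOC101106041, OVGP1 and LOC105615767.

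Against the mean of the other gates, 2325 genes were called with no ewe block, 716 after thinning to 1000 UMI and 2650 to 4129 with 1 ewe left out. Against the ESM1 gate 1035 were called after thinning, and against the APLN gate 450, with 2269 to 3468 with 1 ewe left out. Against the CA4 gate the 22 became 36 without doublets, 46 without HLS replicate 2 and LLS replicate 1, 61 with DESeq2, 162 with no low-count filter, 5 with no ewe block, 9 after thinning and 4 to 29 with 1 ewe left out. The gate without ABCG2 gave 422, a count not comparable with the 22 because both gates of the comparison changed. The causes were not tested, except that thinning leaves fewer UMI and leaving out ewes fewer sums. For held-out gating genes, the difference of SELP was 0.826 after thinning, 0.7315 without those 2 libraries and 0.8634 to 1.235 with 1 ewe left out, and that of PLA1A 0.1049, 0.0945 and 0.0845 to 0.1342, none past the threshold. With ewes left out the threshold cannot be reached (smallest exact p = 0.0625 with 5 ewes). The thinned values rested on 6 ewes, which can reach it, and did not pass (exact sign-flip test, adjusted p = 0.2344 for SELP and 0.09375 for PLA1A). Thinned to 2000 UMI, ABCG2 was lower than in the others in HLS replicate 1 (8.75 against 14.75, in 4 gated barcodes), HLS replicate 3 (21.11 against 21.81) and LLS replicate 2 (19.25 against 19.48). It was higher in the remaining ewes. Against the mean of the other gates with equal weight the difference of ABCG2 rose from 2.093 to 5.119 and passed. Against the CA4 gate alone, rebuilt without the gene in question, the differences were -0.3398 for SELP, 0.014 for PLA1A and -4.752 for ABCG2, none past the adjusted threshold. For ABCG2 that rebuilt gate held mostly barcodes of the full ABCG2/SELP gate, so the sign does not apply to the gates as defined. The sign for SELP is limited as well, since barcodes that SELP had admitted left the gate.

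Replicate numbers are shared by HLS and LLS ewes in the labels. The deviations of same-numbered ewes correlated at -0.08, -0.18 and 0.02, which shows no pairing by number. HLS replicate 2 and LLS replicate 1 correlated at 0.38. Whether same-numbered ewes shared a step of processing cannot be settled from so few ewes. With the replicate block, 0 genes were called between HLS and LLS (smallest edgeR adjusted p = 0.1753). The APLN gate held only 12 to 60 barcodes in the ewes that entered, which limits its levels.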
